A study of Mus musculus with 2 samples.

Results

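The regions described here are the Runx1 peaks around the genes of the CD4 and CD8 co-receptors, namely Cd4, Cd8a and Cd8b1. They were chosen by position: a peak was included if its centre lay between 50 kb upstream and 50 kb downstream of the body of one of these genes in the GENCODE annotation of NCBIM37 (mm9). Of the 3531 peaks in the Runx1 list, 10 met this criterion, 6 around Cd8b1 and Cd8a and 4 around Cd4. The data come from CD4+ CD8+ double-positive (DP) thymocytes, sorted by magnetic separation from the thymus of C57BL/6 mice with no stated genetic change or treatment. One library was made after immunoprecipitation with 10 μg of anti-Runx1 antibody, and 1 input library was made without antibody, both with 15 cycles of PCR and SOLiD sequencing. By the methods the mice of the study were a few weeks old, and the labels do not give how many were pooled for a library. The catalogue number of the antibody differs between the labels and the methods. With 1 library per condition there was no spread between replicates, and no comparison below carries a test.

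CD4 and CD8 are the co-receptors of the T-cell receptor. CD4 binds MHC class II and CD8, a dimer of the products of Cd8a and Cd8b1, binds MHC class I, and both bring the kinase Lck to the receptor. DP thymocytes express both co-receptors before they commit to one lineage. Runx1 belongs to a family of DNA-binding factors that act with the subunit Cbfb and recognise the motif TGTGGT. RUNX factors are known to repress Cd4 through a silencer in its first intron and to act at enhancers spread over the Cd8 locus.

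The sequences of 5 of the 10 peaks are shown, those with the RUNX motif nearest to the peak centre, the one with several copies of it and the one over a TSS. They were read from the plus strand of NCBIM37, 5' to 3', with TGTGGT on either strand in capitals (ACCACA where the motif lies on the minus strand). The peaks are numbered along chromosome 6 within each locus.
Cd8 peak 2, chr6:71291300-71291486, between Cd8b1 and Cd8a: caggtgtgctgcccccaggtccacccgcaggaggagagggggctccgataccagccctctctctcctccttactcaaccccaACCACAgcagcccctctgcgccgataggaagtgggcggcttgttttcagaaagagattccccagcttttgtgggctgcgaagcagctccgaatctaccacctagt
Cd8 peak 4, chr6:71307715-71307901, between Cd8b1 and Cd8a: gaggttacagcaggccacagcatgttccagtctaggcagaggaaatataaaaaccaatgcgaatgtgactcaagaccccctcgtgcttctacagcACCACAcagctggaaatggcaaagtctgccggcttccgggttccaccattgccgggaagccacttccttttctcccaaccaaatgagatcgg
Cd8 peak 5, chr6:71319523-71319709, between Cd8b1 and Cd8a: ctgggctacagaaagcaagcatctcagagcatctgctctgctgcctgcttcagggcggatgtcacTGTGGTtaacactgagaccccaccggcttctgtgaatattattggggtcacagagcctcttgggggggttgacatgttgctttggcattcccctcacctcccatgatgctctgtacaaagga
Cd8 peak 6, chr6:71323316-71323502, over the Cd8a TSS: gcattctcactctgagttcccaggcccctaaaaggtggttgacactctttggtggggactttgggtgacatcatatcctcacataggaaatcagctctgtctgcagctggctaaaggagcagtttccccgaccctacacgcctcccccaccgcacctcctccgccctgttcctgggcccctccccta
Cd4 peak 2, chr6:124836127-124836313, in the first intron of Cd4: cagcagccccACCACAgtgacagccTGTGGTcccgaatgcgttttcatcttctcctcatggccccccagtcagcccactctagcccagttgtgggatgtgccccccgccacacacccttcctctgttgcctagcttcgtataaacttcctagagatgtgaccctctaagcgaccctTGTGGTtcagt

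Around the Cd8 genes, 5 of the 6 peaks had their centre in the stretch between the end of Cd8b1 and the TSS of Cd8a. This stretch is 35.9 kb long. No peak centre lay within the body of either gene, though Cd8 peak 6 reached into Cd8a. Cd8b1 and Cd8a encode the beta and alpha chains of CD8 and are both transcribed from the plus strand, with TSSs 50.6 kb apart (Cd8b1 at chr6:71272830-71287471 and Cd8a at chr6:71323421-71329165). Cd8 peak 2 was the nearest to Cd8b1, 3922 bp past the end of the gene and 32028 bp upstream of the Cd8a TSS, with a score of 35. Cd8 peak 3 (chr6:71303788-71303974) lay 19540 bp upstream of the Cd8a TSS with a score of 28. Cd8 peak 4 lay 15613 bp upstream of the Cd8a TSS and had a score of 21. Cd8 peak 5 lay 3805 bp upstream and had a score of 42, the highest among the 10 peaks. Cd8 peak 6 covered the Cd8a TSS, with its centre 12 bp upstream and a score of 26. Cd8a was the only member with a peak centre within 1 kb of its TSS, as 2.8% of the 22367 protein-coding genes had. The nearest peak to the Cd8b1 TSS was Cd8 peak 1 (chr6:71257576-71257762), 15161 bp upstream. It had a score of 16 and lay in the first intron of Smyd1, a methyltransferase gene of heart and skeletal muscle that is transcribed away from Cd8b1 on the minus strand. The TSS nearest to this peak was that of Gm1070, a predicted gene, 13910 bp away. No peak was found in the 50 kb downstream of Cd8a, and the next peaks on the chromosome lay 498 kb before Cd8b1 (score 23) and 254 kb after Cd8a (score 44). Stage-specific enhancers of CD8 are known in the stretch between the genes, but the files hold no positions for them, and no peak was assigned to one here.

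**Figure D1:**
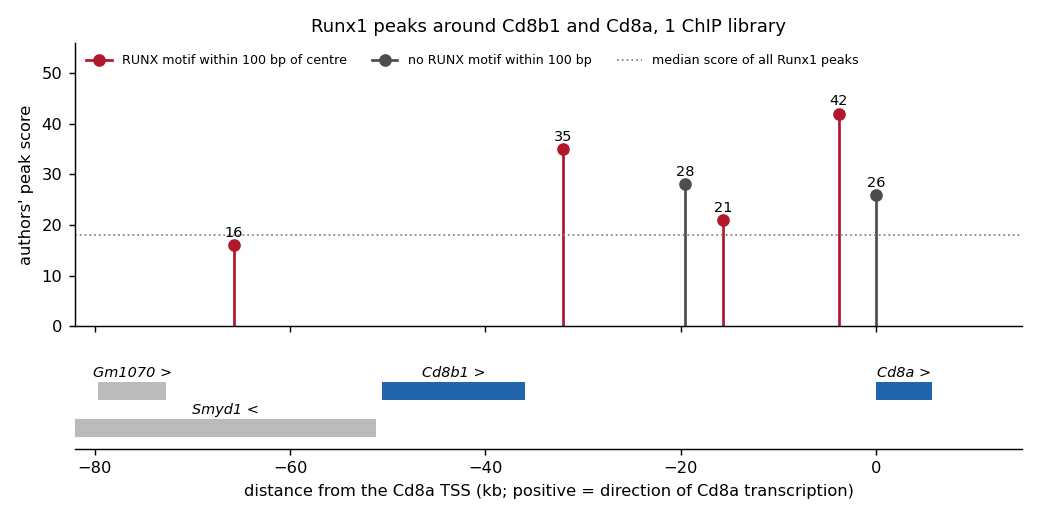
Runx1 peaks around Cd8b1 and Cd8a in 1 ChIP library. The horizontal axis gives the distance from the Cd8a TSS in kb, each stem is a peak with its height equal to the authors' score, red stems have a RUNX motif within 100 bp of the centre, the dotted line is the median score of all Runx1 peaks, and bars below are protein-coding genes (arrows give their direction, and bars at the edge continue beyond it). Of the 6 peaks, 5 have their centre between the end of Cd8b1 and the start of Cd8a, with scores from 21 to 42.

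At Cd4, 2 of the 4 peaks lay in the first of the 9 introns of the gene and 2 lay upstream of it. Cd4 is transcribed from the minus strand (chr6:124814710-124838239). Cd4 peak 2 had its centre 2019 bp downstream of the TSS and a score of 16. Cd4 peak 1 (chr6:124835274-124835460) followed 853 bp further into the same intron, at 2872 bp from the TSS, with a score of 23. This is the intron that holds the silencer of Cd4, whose position is not given in the files. Cd4 peak 3 (chr6:124850426-124850612) lay 12280 bp upstream of the Cd4 TSS, outside protein-coding genes, with a score of 28. A proximal enhancer of Cd4 is known upstream of the gene, and again no peak was assigned to it. Cd4 peak 4 (chr6:124861753-124861939) lay 23607 bp upstream of Cd4, with a score of 16, but only 123 bp upstream of the TSS of Lag3. Lag3 encodes an inhibitory receptor of T cells that is related to CD4 and also binds MHC class II, and Cd4 peak 3 was likewise nearer to the Lag3 TSS (11204 bp) than to that of Cd4. No peak was found within 1 kb of the Cd4 TSS or in the 50 kb after the end of the gene. The next peaks outside lay 124 kb past the end of Cd4 (score 33) and 202 kb upstream of its TSS (score 16).

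**Figure D2:**
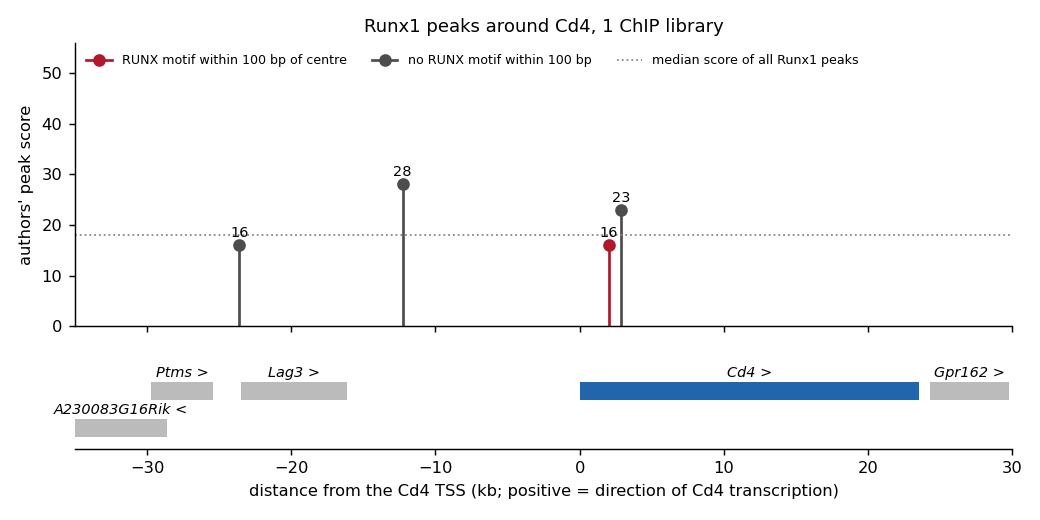
Runx1 peaks around Cd4 in 1 ChIP library, drawn against the distance from the Cd4 TSS in kb, with positive values in the direction of Cd4 transcription. Stems are peaks with their height equal to the authors' score, red marks a RUNX motif within 100 bp of the centre, the dotted line is the median score of all Runx1 peaks, and bars below are protein-coding genes. Both intronic peaks lie within 2872 bp of the TSS, and the remaining pair lies 12280 and 23607 bp upstream, the latter at the start of Lag3.

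The number of peaks around each gene was compared with that around all 22367 protein-coding genes of the annotation, of which 25.8% had at least 1 Runx1 peak within 50 kb of the gene body. Cd8b1 had 6 peaks, Cd8a had 5 and Cd4 had 4. At least 6 peaks were found for 6 genes (0.0268%), at least 5 for 27 genes (0.121%) and at least 4 for 103 genes (0.46%). The 5 peaks of Cd8a are all among the 6 of Cd8b1, because the windows overlap, so the CD8 genes do not count as separate instances. Neighbouring genes also share peaks. Gpr162, Lag3, Ptms, A230083G16Rik and Mlf2 each had the same 4 peaks as Cd4 in their windows. Smyd1 and Rmnd5a each had 5 of the 6 peaks around the CD8 genes. Apart from Cd8b1, the genes with at least 6 peaks were Gm20388 with 20, Ldlrad3 with 7, and Cdh23, Fgfr2 and Sema4d with 6 each. The windows of these genes span from 193 kb at Sema4d to 4530 kb at Gm20388 in the annotation, as compared with 115 kb at Cd8b1, 106 kb at Cd8a and 124 kb at Cd4. Per 100 kb of window, Cd8b1 had 5.23 peaks, a density that no other protein-coding gene reached. The density was 4.73 for Cd8a, which 3 genes reached or exceeded, Cd8a and Cd8b1 among them. It was 3.24 for Cd4, which 66 genes (0.295%) reached or exceeded. Cd4 and its neighbours with the same 4 peaks, which are shorter genes, were among them. When 50 kb on each side of the TSS were used for every gene, Cd8b1 and Cd8a had 5 peaks each, a number that 13 genes reached, both of them included, and Cd4 had 4, which 63 genes reached, Cd4 included. These counts of genes depended on the settings. With 25 kb on each side of the gene body each of the 3 genes had 4 peaks, which 35 genes reached, themselves included. With 100 kb, 41 genes had at least as many peaks as Cd8b1 or as Cd8a and 339 at least as many as Cd4, and with only peaks of a score above the median Cd4 had 2, which 348 genes reached.

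**Figure D3:**
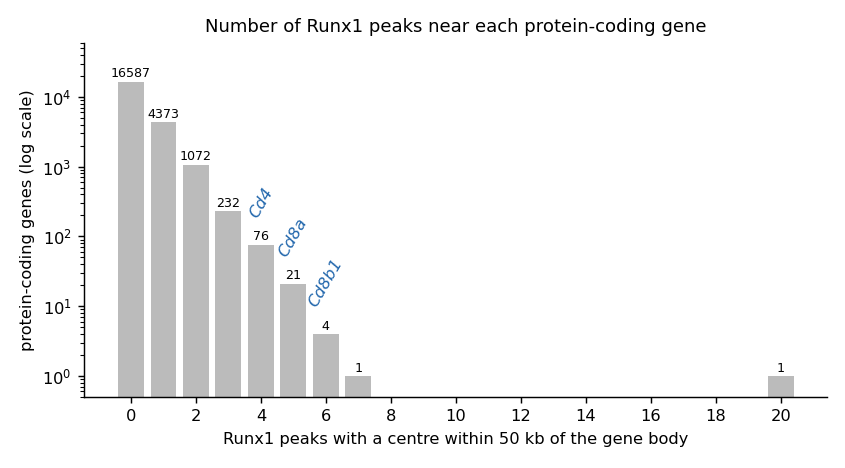
Number of protein-coding genes (vertical axis, log scale) by the number of Runx1 peaks with a centre within 50 kb of the gene body (horizontal axis), with the number of genes above each bar. Cd4, Cd8a and Cd8b1 stand in the bars at 4, 5 and 6 peaks, which hold 76, 21 and 4 genes, while 16587 genes have no peak.

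The scores of the 10 peaks spread over much of the range in which most peaks of the list fall. The score is the authors' own value per peak and orders peaks within the list only. It ran from 14 to 129 over all Runx1 peaks, with a median of 18 and an upper quartile of 23. The 10 peaks had scores from 16 to 42 with a median of 24.5. Of these, 7 were above the median of the list, as were 38.7% of all peaks, and 5 were above the upper quartile, as were 22.2%. The peak 3805 bp upstream of Cd8a was among 197 of the 3531 peaks (5.58%) with at least its score, and the peak past the end of Cd8b1 was among 328 (9.29%). At the other end, the peak in Smyd1, the peak at the Lag3 TSS and the intronic Cd4 peak with several RUNX motifs each had a score of 16, which 1508 peaks share and 99.5% of the list reached. The median was 27 for the 6 peaks around the CD8 genes and 19.5 for the 4 around Cd4, with the ranges overlapping (16 to 42 and 16 to 28). By the highest score in the window, Cd8a and Cd8b1 stood at 42, which 1.51% of protein-coding genes reached, and Cd4 at 28, which 4.9% reached.

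**Figure D4:**
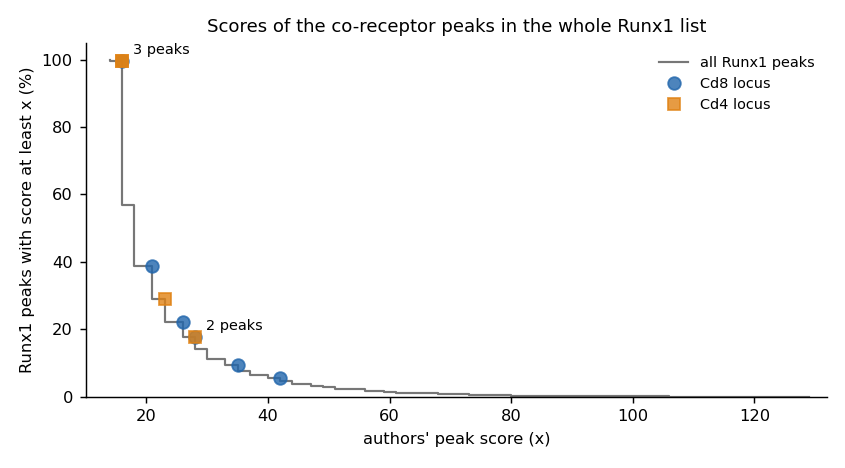
Share of all Runx1 peaks (vertical axis, %) with a score of at least the value on the horizontal axis (grey line), with the 6 peaks around the CD8 genes as circles and the 4 around Cd4 as squares. The highest of the 10, at 42, is reached by 5.58% of peaks, whereas the 3 peaks at a score of 16 lie near the bottom of the list.

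Within 100 bp of the centre, 5 of the 10 peaks held TGTGGT or its reverse complement ACCACA, 4 of 6 around the CD8 genes and 1 of 4 around Cd4. The motif was present in 26.5% of all Runx1 peaks, in 14.6% of windows of the same width 1 kb to either side of the peaks, and in 10.1% of windows centred on the TSSs of protein-coding genes. Among the 20 flanking windows of the 10 peaks, 4 held the motif. Cd8 peak 4 had the match closest to the centre, from chr6:71307810-71307815 on the minus strand, with its first base 2 bp from the centre. In Cd8 peak 2 the match began 11 bp before the centre and in Cd8 peak 5 it began 28 bp before it. In Cd8 peak 1 it began 65 bp before the centre, with its middle 62.5 bp from it. Over the 1134 matches found within 100 bp of the centres of all Runx1 peaks, the median distance between motif middle and centre was 37.5 bp. Cd4 peak 2 held 3 matches, 1 on the minus and 2 on the plus strand, at chr6:124836137-124836142, chr6:124836152-124836157 and chr6:124836303-124836308. A number of 2 or more matches was found in 4.64% of all Runx1 peaks. These matches lay toward the edges of the peak, and none was within 50 bp of its centre. Neither Cd4 peaks 1, 3 and 4 nor Cd8 peak 3 held TGTGGT or TGCGGT in the window, whereas Cd8 peak 6, over the Cd8a TSS, held a TGCGGT on the minus strand at chr6:71323464-71323469.

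Motifs of other factor families with known roles in thymocytes were counted in the same windows. The E-box CAGCTG, a sequence bound by E proteins, was found in 6 of the 10 peaks and in 21.0% of all Runx1 peaks, and in 0 of the 20 flanking windows of the members and 10.5% of the flanking windows of all peaks. It was present in 5 of the 6 peaks around the CD8 genes, all but Cd8 peak 5, and at Cd4 in peak 3 alone. In Cd8 peak 2 the match ended at the base before the peak began, and in Cd8 peak 6 it lay over the Cd8a TSS. The ETS motif AGGAAG was found in 4 of the 10 peaks (33.5% of all peaks), 2 at each locus, and Cd4 peak 2 held 2 copies. The MYB motif AACTG was found in 4 (34.7% of all peaks), and the TCF/LEF motif CTTTGA in 2 (14.2%). The GATA motif AGATAA was found in none of the 10, as compared with 6.34% of all peaks, and in 3 of the 20 flanking windows of the members and 11.9% of those of all peaks. For ETS, TCF/LEF and MYB, the flanking windows of the members held the motif in 4, 4 and 7 of 20, and those of all peaks in 22.5%, 13.9% and 37.4%, respectively. Of the promoter windows, 12.4% held the E-box, 25.7% the ETS motif, 28.7% the MYB motif, 8.2% the TCF/LEF motif and 5.45% the GATA motif. The motifs searched can share bases at their ends, as TGTGGT and CAGCTG can. A match describes letters in a window and does not show that a factor was bound.

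**Figure D5:**
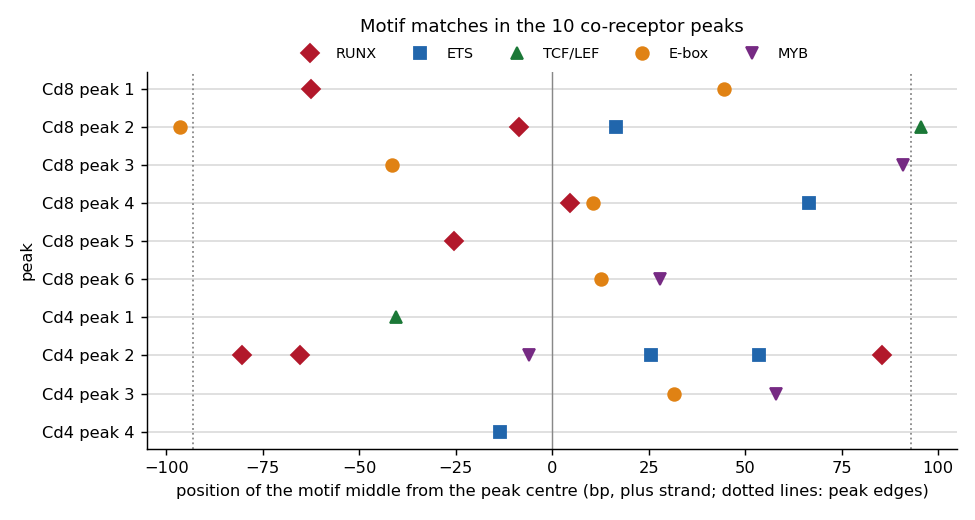
Position of each motif match (middle of the motif, in bp from the peak centre along the plus strand) in the 10 peaks, 1 row per peak, with symbols for the motif families and dotted lines at the edges of the peaks, which are 187 bp wide. RUNX matches lie near the centre in Cd8 peaks 2, 4 and 5 and toward the edges in Cd4 peak 2, and the RUNX and E-box matches of Cd8 peak 4 adjoin.

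The input library had no peak in the window of any of the 3 genes, as compared with 2.24% of protein-coding genes that had an input peak within 50 kb. None of the 10 peaks overlapped an input peak, as was the case for all but 35 of the 3531 Runx1 peaks (0.991%). By the methods, peaks were called with a minimum fold enrichment over input, so a lack of overlap may largely follow from the calling. The nearest of the 740 input peaks lay 583909 bp away at the CD8 genes and 1203420 bp away at Cd4. The GC content of the 10 peaks ran from 52.4 to 60.4%, with a median of 55.6%, and that of all Runx1 peaks had a median of 54.0% (quartiles 51.3 and 57.8%). Cd4 peak 4, at Lag3, held a run of alternating C and T over 50 bp, against at most 9 bp in the others, and its part in the peak was not tested.

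The spacing of the 10 peaks is given as a description, since the windows that chose them also limit how far apart they can lie. All 10 had at least 2 others within 50 kb, which held for 9.09% of all Runx1 peaks. Cd8 peaks 2 and 3 each had 5 neighbours within 50 kb and were the only 2 of the 3531 peaks with so many. Cd8 peaks 4, 5 and 6 had 4, which 27 peaks (0.765%) had or exceeded, and the 4 peaks at Cd4 had 3 each (92 peaks, 2.61%). Around the CD8 genes, gaps ran from 3793 bp, between Cd8 peaks 5 and 6, to 33724 bp, between Cd8 peaks 1 and 2. At Cd4 they ran from 853 bp, between the intronic peaks, to 14299 bp.

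Runx1 peaks were also counted near 24 other genes of co-receptor biology, grouped as ligands, signalling partners, and factors known to act on the co-receptor genes or on the choice between lineages. Of these, 15 (62.5%) had a peak within 50 kb of the gene body, 3 of 5 ligand genes, 3 of 3 signalling genes and 9 of 16 factor genes. The share among all protein-coding genes was 25.8%, and the windows were longer in the list, with a median of 134 kb as compared with 115 kb. The list was chosen with earlier results of these data known, and the difference was not tested. Only Lck and Lef1 had at least 4 peaks, as had 0.46% of all genes, and both had 4. The highest score was 120, at Tcf7, which encodes the factor TCF1, for a peak 31.1 kb upstream of the TSS. It was followed by scores of 56 at Ptprc, which encodes the phosphatase CD45, and at Myb. Lef1, which encodes a relative of TCF1, had a top score of 47. Lck, the kinase that binds the tails of CD4 and CD8, had 44 for a peak 14.9 kb downstream of the TSS. The top peaks at Tcf7, Lef1 and Lck held a RUNX motif, and those at Ptprc and Myb did not. Among the RUNX genes, Runx1 had 3 peaks and Runx3 had 2, while Runx2 and Cbfb had none. Zbtb7b, Gata3, Tox, Ikzf1 and Tcf3 had none either. Bcl11b had 2 peaks, and Satb1, Tcf12, Tcf7 and Myb had 1 each. Patz1, a repressor acting on Cd8, had 1 with a score of 23. H2-Aa and H2-Ab1, which encode chains of MHC class II, had 3 peaks each, with the same peak (score 26) as the highest. Of the MHC class I genes, H2-D1 had 1 peak (score 16), and H2-K1 and B2m had none.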

How the data were processed

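Runx1 ChIP and input were analysed in DP thymocytes, with 1 library each. For each library the authors deposited peaks as positions on mm9 with a score per peak, whose meaning is not named. Per the labels, HOMER was used, and the aligner is not given in the sources used here. Every Runx1 peak ended within its chromosome of NCBIM37. Read counts, and so depth, are unknown, and a missing peak does not show a lack of binding. FPKM of the co-receptor genes and of their upstream antisense transcripts were not used here.

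Positions were made 1-based and compared with protein-coding genes of GENCODE M1. Windows ran 50 kb past the gene body, and motifs were searched on both strands within 100 bp of the centre. The counting procedure was checked on simulated peaks with known answers. Members, lists and motifs were chosen with earlier results of these data known. Genes were named if they held a peak or had the nearest TSS to one. They were also named if their score was among the 5 highest of the list, or if they had at least as many peaks as Cd8b1. Runx1, Runx2, Runx3, Cbfb, Zbtb7b, Gata3, Tox, Patz1, Ikzf1, Tcf3, Bcl11b, Satb1, Tcf12, B2m, H2-K1, H2-D1, H2-Aa and H2-Ab1 were named after their values were seen. So were the neighbouring genes Gpr162, Ptms, A230083G16Rik, Mlf2 and Rmnd5a, and the genes flanking intergenic stretches (Irf2bp2, Tomm20, Cntnap5b, Cdh20 and Rpl34). Alternatives changed the window, the minimum score, input overlap, the gene body and the motif. Python 3.11.15, numpy 2.4.6, pandas 2.3.3 and matplotlib 3.10.9 were used.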

Additional observations from a re-analysis of the deposited data

How the results depend on the processing

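Of 42 alternative values, 26 stayed within 1.5 times the reported value and 16 moved further. Counting any overlap with the window and using the longest transcript changed no count of peaks. Leaving out peaks that overlap an input peak could not change one, since none of the 10 overlapped such a peak. Its values are among the 26. With 10 kb on each side, Cd4 had 2 peaks, Cd8a 2 and Cd8b1 1. With scores above the median Cd4 kept 2 of its 4 peaks, and with scores above the upper quartile 1. The number of protein-coding genes with at least as many peaks as Cd4 was 35 with 25 kb on each side, 339 with 100 kb, 348 with scores above the median and 63 with 50 kb on each side of the TSS. For Cd8a it was 41 with 100 kb, 6 with scores above the median and 13 around the TSS. For Cd8b1 it was 35 with 25 kb, 41 with 100 kb and 13 around the TSS. Distance from the TSS was chosen after seeing the data. The RUNX motif was found in 3 of the 10 peaks within 50 bp of the centre, and in 17.2% of all Runx1 peaks. The wider, narrower and stricter settings count more or fewer bases or peaks by construction.

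Leaving out a library gave no value, since the ChIP and the input were 1 library each. No paired analysis was possible because the ChIP has no second library to pair with an input.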

Other observations

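The following counts were chosen after the positions of the peaks had been seen. The annotation leaves 19791 stretches between protein-coding genes, of which 7.48% held a Runx1 peak. At least 5 peaks were found in 11 of them, and the stretch between Cd8b1 and Cd8a was the only one of these that was no longer than 35.9 kb. The others ran from 341 kb, between Irf2bp2 and Tomm20, to 4280 kb, between Cntnap5b and Cdh20, and included the 380 kb between Rpl34 and Lef1 with 6 peaks. A run of 5 successive peaks within 32016 bp, the span of Cd8 peaks 2 to 6, began at 2 of the 3531 peaks. A run of 4 within 26.5 kb, the span of the peaks at Cd4, began at 7. In Cd8 peak 4 the RUNX motif and the E-box CAGCTG followed each other with no base between them, and such motifs adjoined or overlapped in 19 of all Runx1 peaks (0.538%). A RUNX motif with an ETS motif at most 30 bases away was found in Cd8 peak 2 and Cd4 peak 2, and in 4.96% of all peaks.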
